A study of Mus musculus with 18 samples.

Results

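The genes described here are 10 imprinted genes linked to mesenchymal growth and quiescence: Igf2, H19, Meg3, Dlk1, Peg3, Cdkn1c, Plagl1, Mest, Grb10 and Ndn. They were taken by gene symbol from the table of gene counts, which holds 55486 genes, and each symbol matched 1 row. Of the 10, 9 passed the filter on low counts that 14273 genes passed. Igf2 did not pass it.

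Imprinted genes are transcribed mainly from the copy inherited from 1 parent, and many of them set how much fetal tissue grows. Paternally expressed genes such as Igf2, Dlk1, Mest, Peg3, Plagl1 and Ndn and maternally expressed genes such as H19, Meg3, Cdkn1c and, in most tissues, Grb10 form a network that is active in fetal mesenchyme and falls after birth. Several members persist in stem and progenitor cells, where they are linked to quiescence. The mice were inbred and only summed counts were used, so the parental copy behind a count is unknown.

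Polyadenylated RNA was measured in normal fibroblasts (NFs) of the mammary gland of young adult female mice on the FVB/n background. The NFs lacked EpCAM, CD49f, CD45 and CD31 at sorting, came from pooled mice and were divided by CD26, a surface peptidase encoded by Dpp4 that cultured CD26+ cells lose rapidly. Per the study's methods, the donors carried no Wap-Cre and bore either floxed alleles, Cdh1 among them, or the mTmG reporter, and the donor line of each culture is not given in the sources used here. For 7 days the cultures received conditioned medium (CM), either control (3 libraries of each cell type) or tumor CM (6 libraries of each cell type). Within a cell type, each tumor CM culture was given the medium of another line derived from mammary tumors of a mouse model of invasive lobular carcinoma (Wap-Cre with floxed alleles, Cdh1 among them), and the same 6 lines, 13-MCB-17, 10-SJK-221, 18-MCB-12, 13-MCB-44, 13-MCB-90 and 13-MCB-138, served both cell types. Total counts ran from 9725723 to 14585349 per library. Nothing in the labels says that replicates were separate isolations, so the p-values measure the spread between these cultures, which includes the CM line and may otherwise be technical.

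The summed level of 10 fibroblast markers was 16320 to 31188 CPM (counts relative to a library size scaled by the TMM method) in the CD26- libraries. In CD26+ NFs it was 76424 to 96014 CPM in control and 38748 to 64870 CPM in CM libraries, which did not overlap, and with CM 5 of the 10 markers fell and 3 rose there. Over all genes 13.4% fell and 15.2% rose with CM in CD26+ NFs. Markers of other cells were also present. The summed level of 12 epithelial markers was 4819 to 5427 CPM in CD26- control, 3257 to 5261 CPM in CD26- CM, 766 to 1417 CPM in CD26+ control and 728 to 1763 CPM in CD26+ CM libraries, although the sort removed EpCAM+ and CD49f+ cells. The summed level of 12 skeletal muscle markers was 50.9 to 79.6, 58.9 to 171, 12.7 to 19.02 and 6.90 to 20.4 CPM in the same order, and Myod1, Myf5, Pax7 and Ckm had at most 3 counts in any CD26- control library. Of 8 adipocyte markers the sum was 181 to 206, 241 to 547, 771 to 846 and 1232 to 1807 CPM in that order, and 5 of 6 tested were higher in CD26+ NFs in each medium. Over all genes 25.0% were higher in control medium and 29.3% in tumor CM. Adipoq and Cidec had at most 3 counts in every CD26- library and could pass the filter only through CD26+ libraries. Pericyte and smooth muscle markers (8 genes) summed to 1160 to 3645 CPM over all libraries, and 5 Schwann cell markers to 18.98 to 30.9 CPM in CD26- and 5.11 to 10.1 CPM in CD26+ libraries. Among 8 immune markers, Ptprc, Adgre1, Itgam, Cd3e and Cd79a had at most 3 counts in every library. In bulk RNA, fewer cells of a type and less RNA per cell cannot be told apart.

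RefSeq promoter entries (GRCm38.p6) were present for 8 of the 10 members, in 15 entries, and H19 and Cdkn1c had none. The 120 bases before a RefSeq start are shown for the neighbors Dlk1 and Meg3, the members whose counts differed between CM lines (Plagl1 and Grb10) and Mest, which differed in all 4 comparisons of groups, with each GGGCGG and each TATAAA, on either strand, in capitals. GGGCGG, the core of the GC box, was found on either strand in 35.7% of all 32851 promoter windows of the same length (250 bases before to 50 after a start), TATAAA in 13.6% and GGGGCCCC, a sequence bound by the Plagl1 protein, in 1.08%. The Meg3 and Dlk1 windows lie just outside the annotated gene bodies, while those of Plagl1, Grb10 and Mest lie inside them, at starts downstream of the outermost annotated one.
Meg3, chr12:109540876-109540995, plus strand: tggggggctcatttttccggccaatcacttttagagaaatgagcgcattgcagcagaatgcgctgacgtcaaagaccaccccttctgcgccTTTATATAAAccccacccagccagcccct
Dlk1, chr12:109452703-109452822, plus strand: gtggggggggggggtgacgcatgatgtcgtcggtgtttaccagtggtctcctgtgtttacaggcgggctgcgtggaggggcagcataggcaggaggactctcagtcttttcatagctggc
Plagl1, chr10:13090712-13090831, plus strand: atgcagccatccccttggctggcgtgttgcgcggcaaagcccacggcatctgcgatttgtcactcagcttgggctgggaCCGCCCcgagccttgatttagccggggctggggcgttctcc
Grb10, chr11:12037421-12037540, minus strand: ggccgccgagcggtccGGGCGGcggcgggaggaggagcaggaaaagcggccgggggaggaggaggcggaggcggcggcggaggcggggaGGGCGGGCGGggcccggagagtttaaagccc
Mest, chr6:30737930-30738049, plus strand: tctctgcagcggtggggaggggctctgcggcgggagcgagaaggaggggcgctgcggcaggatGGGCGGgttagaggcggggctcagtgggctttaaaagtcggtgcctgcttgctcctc
Near its end the Meg3 window holds 2 overlapping TATAAA matches, 1 on each strand, and the Dlk1 window of the neighboring gene holds neither motif. The Grb10 window holds 3 GGGCGG matches, of which 2 overlap, and its full 300 bases hold 45 CpG dinucleotides, more than 98.1% of all windows. The Plagl1 window of 300 bases holds 26 CpG, more than 83.1% of all windows. GGGGCCCC was found in 1 of the 15 member windows, that of Peg3. Other starts of the same genes differed: the second Grb10 entry held 0 GGGCGG and 9 CpG, and the second Meg3 entry held 0 TATAAA and 1 CpG. These matches are letters in a window and not binding sites.

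Igf2, H19, Meg3 and Mest carry annotated microRNAs. The mature sequences of H19 and Mest are shown with the seed (bases 2 to 8) in capitals, because these host transcripts changed with CM. The microRNAs themselves were not measured in these polyadenylated libraries.
miR-675-5p, in an exon of H19, chr7:142577112-142577133, minus strand: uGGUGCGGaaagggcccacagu
miR-675-3p, in an exon of H19, chr7:142577078-142577099, minus strand: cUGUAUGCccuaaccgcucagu
miR-335-5p, in an intron of Mest, chr6:30741314-30741336, plus strand: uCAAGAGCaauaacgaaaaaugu
miR-335-3p, in an intron of Mest, chr6:30741354-30741375, plus strand: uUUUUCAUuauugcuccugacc
No seed is shared among these 4.

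Per kilobase of annotated exon, the highest member levels in CD26- control NFs were those of Grb10 (10.9 ± 0.976 CPM per kb, SD, n = 3), Ndn (9.56 ± 1.01) and Meg3 (5.00 ± 1.18). In CD26+ control NFs the highest was H19 (61.2, 95.9 and 65.0 CPM per kb in the 3 libraries, mean 74.0), followed by Grb10 (35.6 ± 3.44, SD, n = 3), Ndn (14.4 ± 0.928) and Meg3 (12.2 ± 1.75). The same quantity for H19 in CD26- control NFs was 2.47 ± 0.385. Igf2 was the lowest in all 4 groups, with group means of 0.0224 to 0.0850 CPM per kb. Cdkn1c came next in 3 groups (0.365 to 0.588 over all 4), and in CD26+ CM libraries Mest lay below it (0.344 against 0.425). Levels within a gene are given as CPM from here on.

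**Figure D1:**
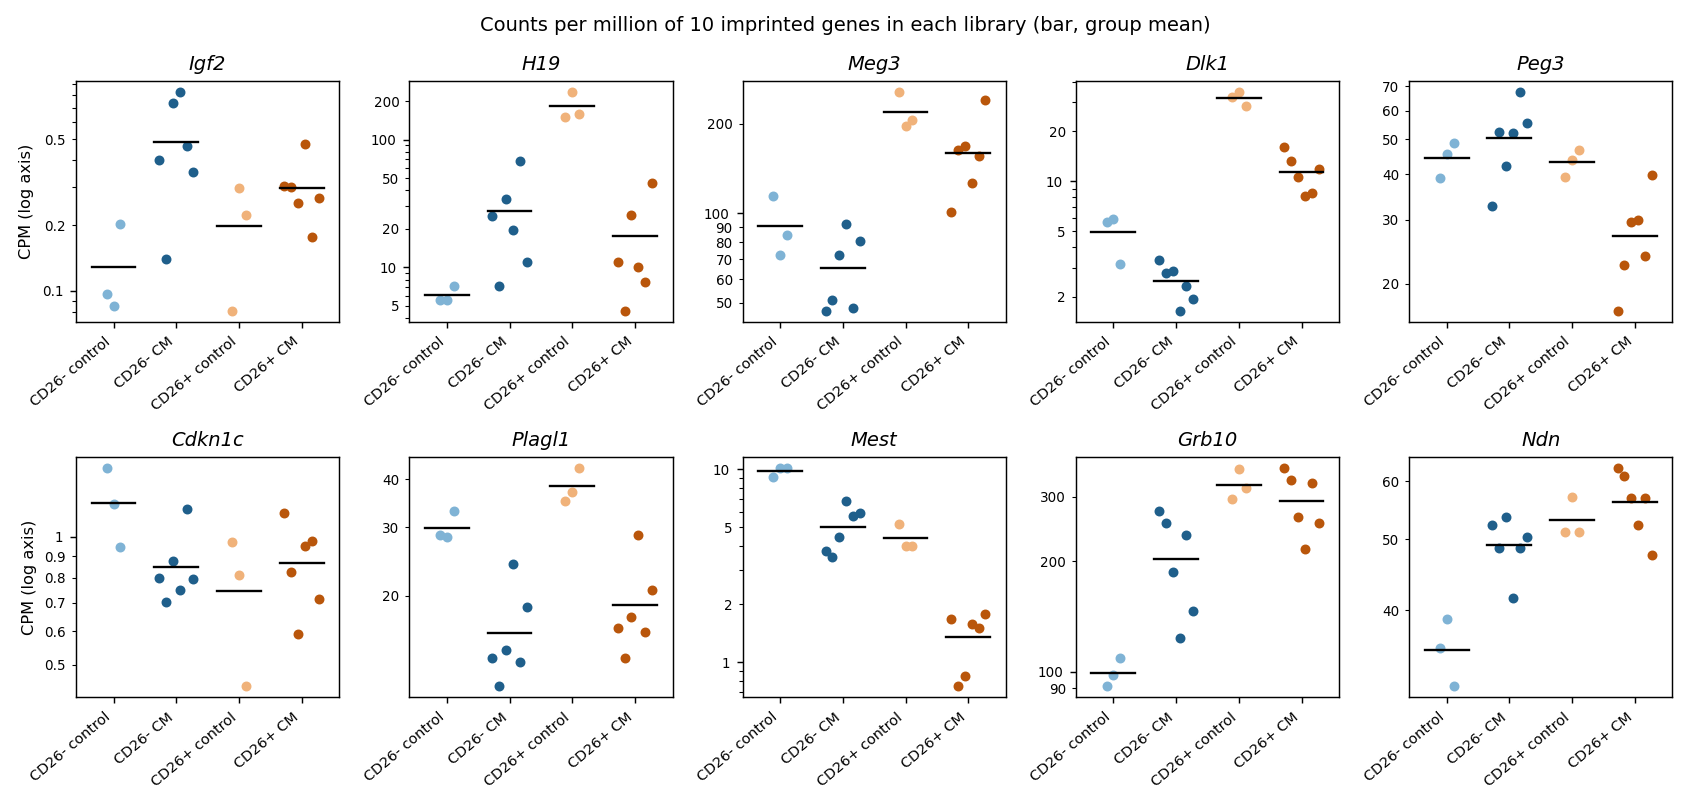
CPM (log axis, scale set per gene) of each of the 10 genes in every library of the 4 groups, 1 point per library and a bar at the group mean. H19 sits between 151 and 236 CPM in the 3 CD26+ control libraries and at 67.4 CPM or less in the other 15.

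In control medium CD26+ NFs held more H19, Dlk1, Grb10, Meg3 and Ndn and less Mest than CD26- NFs. Differences are given as log2 fold changes with their standard error (SE) from the edgeR quasi-likelihood test, and FDR is the Benjamini-Hochberg adjusted p over all 14273 genes, with 0.05 as the threshold. In this comparison 5 members were higher in CD26+ NFs, where 25.0% of all genes were, and 1 was lower, where 25.4% of all genes were. The groups did not overlap for 7 members, against 64.7% of all genes. H19 and Dlk1 also exceeded a log2 fold change of 2, the further limit of the study, which 5.97% of all genes passed in either direction. The median log2 fold change of the 9 tested members was 0.59, and that of all genes was 0.01.

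With tumor CM, CD26- NFs gained Grb10 and Ndn and lost Dlk1, Plagl1 and Mest. These are 2 members up, against 7.88% of all genes, and 3 down, against 7.28%. The groups did not overlap for Grb10, Ndn, Plagl1 and Mest, which is 4 members against 20.3% of all genes. By edgeR 0 members passed both the FDR and the log2 limit of 2, which 0.904% of all genes did, while 6 had an unadjusted p under 0.05 and H19 passed both limits with DESeq2 (log2 fold change 2.17, FDR 0.0153). The median over the 9 tested members was -0.47, and over all genes 0.01.

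In CD26+ NFs tumor CM lowered H19, Dlk1, Peg3, Plagl1 and Mest, in the libraries whose summed fibroblast markers were also below the controls. The part of that shift in these results was not tested. These 5 members fell, against 13.4% of all genes, and 0 rose, against 15.2%, by edgeR at the FDR, at an unadjusted p under 0.05 and by DESeq2. For H19, Dlk1, Plagl1 and Mest the groups did not overlap, which is 4 members against 25.3% of all genes. H19 alone passed the log2 limit of 2, which 2.01% of all genes passed. The median over the 9 members was -0.68, and over all genes 0.00.

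In tumor CM, CD26+ NFs were higher than CD26- NFs in Meg3, Dlk1, Grb10 and Ndn and lower in Peg3 and Mest. These are 4 members higher and 2 lower, where 29.3% of all genes were higher and 29.3% lower. The groups did not overlap for Meg3, Dlk1 and Mest, which is 3 members against 31.7% of all genes, and Dlk1 alone passed the log2 limit of 2, which 4.16% of all genes passed. The median over the 9 members was 0.19. The epithelial markers were lower in CD26+ NFs for 9 of 11 tested genes in either medium, against 25.4% of all genes in control medium. The 9 tested muscle markers were all lower in tumor CM. Of the 12 muscle markers, 8 had at most 3 counts in every CD26+ library. Those of the 8 that were tested passed the filter through CD26- libraries, which set their direction. The content of epithelial and muscle transcripts and the CD26 sort cannot be told apart in the comparisons of cell types. As a covariate, a marker level was the mean log2 CPM of its list, epithelial or muscle, and not the summed CPM. With the epithelial marker level as a covariate, Dlk1 alone of the members called here passed in control medium (1.94, FDR 0.00772) and in tumor CM (1.498, FDR 0.0129). The calls over all genes went from 7186 to 1565 and from 8360 to 2008 of 14273. The fitted differences of Meg3 kept their size under that covariate (1.27 in each medium, FDR 0.127 and 0.0728), that of Peg3 in tumor CM was -0.77 (FDR 0.211) and that of H19 in control medium was 3.597 (FDR 0.112).

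**Figure D2:**
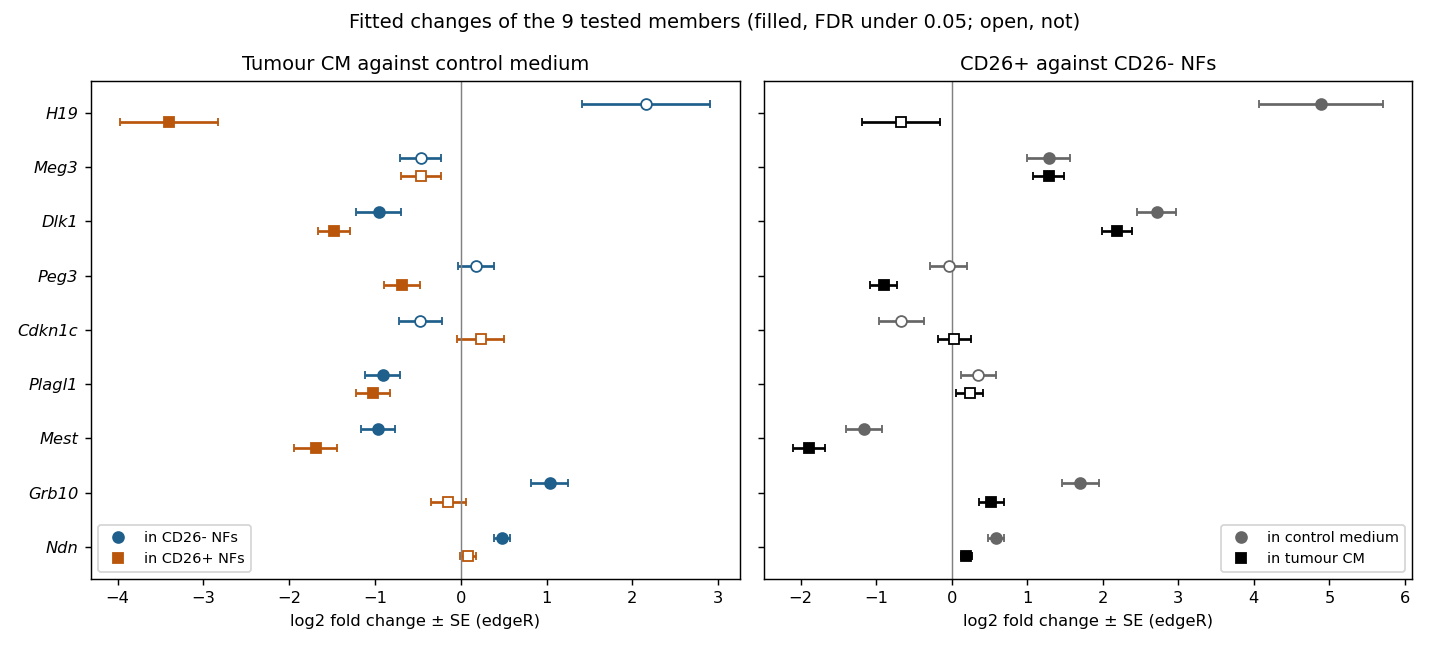
Log2 fold change with SE of the 9 tested members for tumor CM against control medium (left, circles CD26- NFs, squares CD26+ NFs) and for CD26+ against CD26- NFs (right, circles control medium, squares tumor CM). Filled symbols have an FDR under 0.05. H19 lies at 2.16 in CD26- NFs and at -3.40 in CD26+ NFs, the widest gap between cell types in the left panel.

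H19 is a spliced noncoding RNA whose gene (chr7:142575529-142578143, minus strand, GRCm38) lies 72622 bases from Igf2 (chr7:142650766-142666816, minus strand). Its level was 5.52, 5.55 and 7.17 CPM in the 3 CD26- control libraries and 151, 236 and 160 CPM in the 3 CD26+ control libraries. In tumor CM it ran from 7.16 to 67.4 CPM (median 22.4) in CD26- NFs and from 4.58 to 45.8 CPM (median 10.5) in CD26+ NFs. The CD26+ control libraries thus stood apart from all others, and the other 3 groups overlapped.

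The cell types differed in H19 in control medium (log2 fold change 4.89 ± 0.82, FDR 8.45e-05). CM lowered H19 in CD26+ NFs (-3.40 ± 0.57, FDR 0.000297; 10.6-fold), in 6 of 6 libraries. In CD26- NFs the fitted difference was 2.16 ± 0.75 with an FDR of 0.0582, which did not pass, although 5 of 6 CM libraries were above every control. That FDR fell to 0.0396 and 0.0406 without CD26- CM replicate 5 or 9, to 0.0469 and 0.0282 without CD26+ CM replicate 14 or 18, to 0.0444 without a filter on low counts and to 0.0459 with the 2 groups alone. The CM effects of the 2 cell types differed by -5.56 ± 0.96 on the log2 scale (FDR 0.00402), and the FDR stayed under 0.05 without any 1 of the 18 libraries. With the mean muscle marker level as a covariate this difference was -2.49 (FDR 0.557). That fit left 0 of all 14273 genes past the FDR for this difference, so the lost call is not particular to H19.

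In tumor CM the cell types overlapped in H19, and their difference did not pass (-0.67 ± 0.51, FDR 0.274). Without CD26+ CM replicate 18, which held the highest H19 of its group, this difference was -1.23 with an FDR of 0.0364. Over the fits without 1 library it ran from -1.23 to -0.18. Within groups the spread of H19 was the widest of the tested members in tumor CM, with a coefficient of variation of 79.7% in CD26- CM and 89.9% in CD26+ CM libraries, against 15.6% and 25.7% in the controls.

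Muscle markers moved with H19 in CD26- NFs. Of 9 tested muscle markers, 7 rose with CM in CD26- NFs, led by the actin gene Actc1 (4.22, FDR 0.000602), the acetylcholine receptor subunit Chrna1 (2.61, FDR 0.000819) and desmin, Des (3.28, FDR 0.000885). Over all genes 7.88% rose there. A marker near 0 in the CD26- controls could pass the filter only through other libraries, where it was higher. The CD26- CM library with most H19 (replicate 8, 67.4 CPM) also had the highest muscle sum (171 CPM), and the library with least H19 (replicate 5, 7.16 CPM) had the lowest (58.9 CPM). With the mean muscle marker level as a covariate, the fitted CM effect on H19 in CD26- NFs was -0.82 (FDR 0.929) and that in CD26+ NFs -3.31 (FDR 7.97e-05). That covariate left 2 of all 14273 genes past the FDR for CM in CD26- NFs, so it removed nearly every call there, and the part of muscle transcripts in the H19 result cannot be told apart from the CM effect.

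Igf2, the fetal growth factor, was near the limit of detection, with 1 to 11 counts per library. Its level was 0.0854 to 0.203 CPM in CD26- control, 0.140 to 0.826 CPM in CD26- CM, 0.0809 to 0.296 CPM in CD26+ control and 0.177 to 0.476 CPM in CD26+ CM libraries. Each group overlapped every other. Without the filter on low counts its CM effect in CD26- NFs was 1.77 on the log2 scale (FDR 0.0874). Within the 6 CD26- CM libraries H19 and Igf2 had r = 0.607 (exact permutation p = 0.197; rho 0.600, p = 0.242; r = 0.538 without the 2 libraries farthest from the median), and within CD26+ CM r = -0.097 (exact permutation p = 0.906; rho -0.086, p = 0.919; r = 0.300 without the 2 farthest). The adjusted p over 4 such relations was 0.394 or more.

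Dlk1 and Meg3 lie 77664 bases apart in another imprinted domain. Dlk1 (chr12:109452823-109463336, plus strand) encodes a membrane protein that holds back adipocyte differentiation, and Meg3 (chr12:109541001-109571726, plus strand) is a noncoding RNA expressed from the opposite parental copy. Dlk1 measured 5.71, 5.89 and 3.18 CPM in CD26- control and 32.2, 34.7 and 28.7 CPM in CD26+ control libraries. In tumor CM it ran from 1.65 to 3.36 CPM (median 2.57) in CD26- and from 8.16 to 16.1 CPM (median 11.2) in CD26+ NFs. Every CD26+ library was above every CD26- library, and within CD26+ NFs every CM library was below every control.

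Dlk1 was higher in CD26+ than in CD26- NFs in control medium (log2 fold change 2.71 ± 0.25, FDR 2.25e-07) and in tumor CM (2.19 ± 0.20, FDR 7.65e-08). CM lowered it in both cell types, with log2 fold changes of -1.48 ± 0.19 in CD26+ NFs (FDR 2.5e-05) and -0.95 ± 0.26 in CD26- NFs (FDR 0.0212). The CD26- result was lost when control replicate 1 (FDR 0.098) or 2 (FDR 0.105) was left out, and replicate 3 (3.18 CPM) lay within the CM range. The difference of the CM effects was -0.52 ± 0.33 (FDR 0.345).

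Meg3 measured 114, 72.7 and 84.5 CPM in CD26- control and 256, 197 and 206 CPM in CD26+ control libraries. In tumor CM it ran from 47.1 to 92.2 CPM (median 62.0) in CD26- and from 101 to 240 CPM (median 159) in CD26+ NFs. The cell types did not overlap within a medium, while the media overlapped within each cell type. Meg3 was higher in CD26+ NFs by 1.28 ± 0.28 in control medium (FDR 0.00108) and by 1.28 ± 0.20 in tumor CM (FDR 3.19e-05). The CM differences of -0.47 ± 0.24 in CD26- (FDR 0.205) and -0.47 ± 0.24 in CD26+ NFs (FDR 0.152) did not pass. Without CD26+ CM replicate 18, the highest of its group, the CD26+ value was -0.63 with an FDR of 0.0303. Meg3 and Dlk1 had r = -0.752 over the 6 CD26- CM libraries (exact permutation p = 0.106; rho -0.771, p = 0.103; r = 0.013 without the 2 farthest libraries) and r = -0.165 over the 6 CD26+ CM libraries (exact permutation p = 0.772; rho -0.029, p = 1; r = 0.683 without the 2 farthest).

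Mest (chr6:30723547-30748465, plus strand), a paternally expressed gene of the alpha/beta hydrolase family, was lower with CM in each cell type and lower in CD26+ NFs in each medium. It measured 9.10, 10.2 and 10.2 CPM in CD26- control and 5.18, 4.00 and 4.01 CPM in CD26+ control libraries. With tumor CM it ran from 3.51 to 6.83 CPM (median 5.10) in CD26- and from 0.750 to 1.79 CPM (median 1.55) in CD26+ NFs. CD26- control was the highest group and CD26+ CM the lowest, and the 2 groups between them overlapped each other.

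The CM effect on Mest was -0.96 ± 0.20 in CD26- (FDR 0.00461) and -1.69 ± 0.25 in CD26+ NFs (FDR 9.43e-05). CD26+ NFs held less Mest in control medium (-1.16 ± 0.24, FDR 0.000685) and in tumor CM (-1.89 ± 0.21, FDR 7.07e-07). The CM effects differed by -0.73 ± 0.33 (FDR 0.168), and with the CM line as a replicate block by -0.72 (FDR 0.0394). With the epithelial marker level as a covariate, the difference between cell types became 0.09 in control medium (FDR 0.919) and -0.78 in tumor CM (FDR 0.160). The 3' end of Mest overlaps Copg2 on the opposite strand, which had 7855 counts over the 18 libraries against 1024 for Mest, and the strand setting of the counting is not given in the sources used here. For Copg2 the CM values were -0.15 in CD26- (FDR 0.255) and -0.02 in CD26+ NFs (FDR 0.915), and it was lower in CD26+ NFs in control medium (-0.72, FDR 1.61e-05) and in tumor CM (-0.59, FDR 2.26e-06).

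Peg3 (chr7:6703892-6730431, minus strand) encodes a large zinc finger protein and marks progenitor cells in several tissues. It measured 39.0, 45.4 and 48.8 CPM in CD26- control and 39.4, 43.9 and 46.7 CPM in CD26+ control libraries, which overlapped. Its tumor CM values ran from 32.7 to 67.6 CPM (median 52.3) in CD26- and from 16.8 to 39.8 CPM (median 26.7) in CD26+ NFs. CM lowered Peg3 in CD26+ NFs (-0.68 ± 0.21, FDR 0.0214). This call was lost when replicate 11 (0.0599) or 12 (0.0778) of the CD26+ controls was left out. In CD26- NFs the value was 0.18 ± 0.21 (FDR 0.609).

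In tumor CM Peg3 was lower in CD26+ NFs (-0.90 ± 0.18, FDR 0.000271), and the control value was -0.04 ± 0.24 (FDR 0.910). The CM effects differed by -0.86 ± 0.30 with an FDR of 0.0818. That FDR was 0.00845 with the CM line as a replicate block, 0.0481 with DESeq2, 0.046 without CD26- CM replicate 4 and 0.0155 without CD26+ CM replicate 18. Proliferation markers moved with it: 10 of 12 fell with CM in CD26+ NFs, against 13.4% of all genes. In tumor CM 12 of 12 were lower in CD26+ than in CD26- NFs, against 29.3% of all genes. The summed level of these markers was 1012 to 1316 CPM in CD26- CM and 360 to 1174 CPM in CD26+ CM libraries, against 1052 to 1148 and 1077 to 1137 CPM in the controls. The CD26+ CM library with the highest sum (replicate 18, 1174 CPM) had the most Peg3 (39.8 CPM), Meg3 and H19 of its group, and the one with the lowest sum (replicate 13, 360 CPM) had the least Peg3 (16.8 CPM). The part of proliferation in the Peg3 result was not tested.

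Plagl1 (chr10:13060504-13131694, plus strand) encodes a zinc finger protein that slows the cell cycle and binds other imprinted genes. It measured 28.7, 28.3 and 33.0 CPM in CD26- control and 35.1, 37.1 and 42.8 CPM in CD26+ control libraries. In tumor CM it ran from 11.7 to 24.1 CPM (median 14.1) in CD26- and from 13.8 to 28.6 CPM (median 17.0) in CD26+ NFs, so that every CM library lay below every control of its cell type. The CM effect was -0.91 ± 0.21 in CD26- (FDR 0.00719; 0.0557 without control replicate 3) and -1.02 ± 0.20 in CD26+ NFs (FDR 0.00112). The difference of the CM effects was -0.12 ± 0.29 (FDR 0.849). Between cell types it was 0.35 ± 0.23 in control medium (FDR 0.223; 0.00613 with the 2 groups alone) and 0.24 ± 0.18 in tumor CM (FDR 0.261). In tumor CM the value passed with the CM line as a replicate block (0.23, FDR 0.00483) and without CD26- CM replicate 7 (0.39, FDR 0.0443). Over the fits without 1 library it ran from 0.071 to 0.39. With the epithelial marker level as a covariate the values were 1.38 in control medium (FDR 0.0159) and 1.13 in tumor CM (FDR 0.0157).

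Grb10 (chr11:11930508-12038683, minus strand) encodes an adaptor that binds the insulin and IGF1 receptors and restrains their signal. It measured 91.2, 97.8 and 109 CPM in CD26- control and 296, 358 and 317 CPM in CD26+ control libraries. In tumor CM it ran from 124 to 274 CPM (median 212) in CD26- and from 216 to 360 CPM (median 296) in CD26+ NFs. CD26- control was the lowest group and overlapped no other, and the CD26+ groups overlapped each other.

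CM raised Grb10 in CD26- NFs (1.04 ± 0.22, FDR 0.00492) and gave -0.14 ± 0.20 in CD26+ NFs (FDR 0.643). CD26+ NFs held more Grb10 in control medium (1.70 ± 0.25, FDR 1.87e-05) and in tumor CM (0.52 ± 0.17, FDR 0.0130). With the epithelial marker level as a covariate neither passed, with 0.96 in control medium (FDR 0.142) and -0.12 in tumor CM (FDR 0.855). The CM effects differed by -1.18 ± 0.30 (FDR 0.0232). That FDR was 0.0596, 0.0528 and 0.0703 when control replicate 1 or 2 (CD26-) or 11 (CD26+) was left out.

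Ndn (chr7:62346569-62350262, plus strand) encodes necdin, a protein of the MAGE family linked to cell cycle exit. It measured 35.5, 38.9 and 31.5 CPM in CD26- control and 51.1, 57.0 and 51.1 CPM in CD26+ control libraries, and in tumor CM from 41.5 to 53.6 CPM (median 49.5) in CD26- and from 47.5 to 62.6 CPM (median 56.9) in CD26+ NFs. Only CD26- control stood apart from the other groups. CM raised Ndn in CD26- NFs (0.48 ± 0.09, FDR 0.00295), and the value in CD26+ NFs was 0.08 ± 0.09 (FDR 0.535). Ndn was higher in CD26+ NFs in control medium (0.59 ± 0.11, FDR 0.000163).

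In tumor CM the Ndn difference of 0.19 ± 0.07 (FDR 0.0314) did not pass without CD26- CM replicate 5, 7 or 8 or CD26+ CM replicate 13, 14, 15 or 17 (FDR 0.0527, 0.0781, 0.0530, 0.0849, 0.0760, 0.0553 and 0.0554), nor with upper-quartile scaling (0.17, FDR 0.0514) or the 2 groups alone (0.18, FDR 0.0503). With the epithelial marker level as a covariate it was -0.07 (FDR 0.798), and the difference in control medium was 0.29 (FDR 0.314). The CM effects on Ndn differed by -0.40 ± 0.13 with an FDR of 0.0654. The FDR was 0.0236 with the CM line as a replicate block, 0.0447 with DESeq2, 0.0451 with upper-quartile scaling and 0.0286, 0.0465 and 0.0405 without CD26- CM replicate 7, CD26+ CM replicate 13 or CD26+ CM replicate 18.

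Cdkn1c (chr7:143458339-143461050, minus strand) encodes p57, an inhibitor of cyclin-dependent kinases. It was close to the filter, with 6 to 15 counts per library and group means of 1.20 ± 0.252 (CD26- control, SD, n = 3), 0.848 ± 0.165 (CD26- CM, n = 6), 0.744 ± 0.270 (CD26+ control, n = 3) and 0.866 ± 0.196 CPM (CD26+ CM, n = 6). All 4 groups overlapped. Its log2 fold changes ran from -0.67 ± 0.30 (CD26+ against CD26- in control medium, FDR 0.0939) to 0.70 ± 0.37 (difference of the CM effects, FDR 0.294), and none of the 5 contrasts passed.

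The difference in CM effect between the cell types was tested for each member. By edgeR it passed the FDR for H19 and Grb10, which is 2 members more negative in CD26+ NFs, against 3.01% of all genes. With the CM line as a replicate block 5 members passed, H19, Peg3, Mest, Grb10 and Ndn, and all 5 were more negative in CD26+ NFs. That fit also called more of all genes, 2516 of 14273 against 1075 without the block. More positive values were found for 0 members, against 4.53% of all genes, also at an unadjusted p under 0.05 and by DESeq2, which gave Cdkn1c no adjusted p. H19 alone passed the log2 limit of 2, which 0.392% of all genes passed.

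Plagl1 and Grb10 differed between the CM lines. Over the 12 tumor CM libraries, with cell type in the model, the line changed Plagl1 (edgeR FDR 0.00273) and Grb10 (FDR 0.00825), which is 2 of the 9 members against 6.56% of 13344 genes. For both genes the order of the 6 lines was the same in the 2 cell types. Line 13-MCB-44 left Plagl1 highest, at -0.31 and -0.42 on the log2 scale relative to the CD26- and CD26+ control means, and 10-SJK-221 lowest, at -1.35 and -1.46. For Grb10 13-MCB-44 was lowest, at 0.32 and -0.58, and 13-MCB-17 highest, at 1.47 and 0.16. Without 13-MCB-44 the FDR of Plagl1 was 0.0718, while that of Grb10 stayed under 0.05 without any 1 line. Pericyte and smooth muscle markers divided the lines the same way. With 10-SJK-221, 13-MCB-17 and 13-MCB-90, the 3 lines lowest in Plagl1 and highest in Grb10, their sum was 1577 to 1699 CPM in CD26- and 1160 to 1470 CPM in CD26+ NFs, and with the other 3 lines it was 2763 to 3645 and 2304 to 3058 CPM. Their part in the line result was not tested.

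The other members had FDR values of 0.0679 (Dlk1), 0.153 (Peg3), 0.192 (Meg3 and Mest), 0.384 (Ndn), 0.403 (H19) and 0.863 (Cdkn1c) across lines. Dlk1 passed without 13-MCB-138 (0.0254) and Meg3 without 13-MCB-44 (0.0469). With DESeq2 Meg3 (0.0191) and Peg3 (0.0202) passed, and without a filter on low counts H19 (0.00092), Meg3 (5.56e-05), Dlk1 (0.00576) and Peg3 (0.000251) passed. In the order of lines for H19, only 13-MCB-90 and 13-MCB-138 changed places between the cell types. Line 13-MCB-90 gave the most H19 in CD26- NFs (67.4 CPM) and 7.63 CPM in CD26+ NFs, where 13-MCB-138 gave the most (45.8 CPM). In both cell types 10-SJK-221 gave the least, 7.16 and 4.58 CPM.

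**Figure D3:**
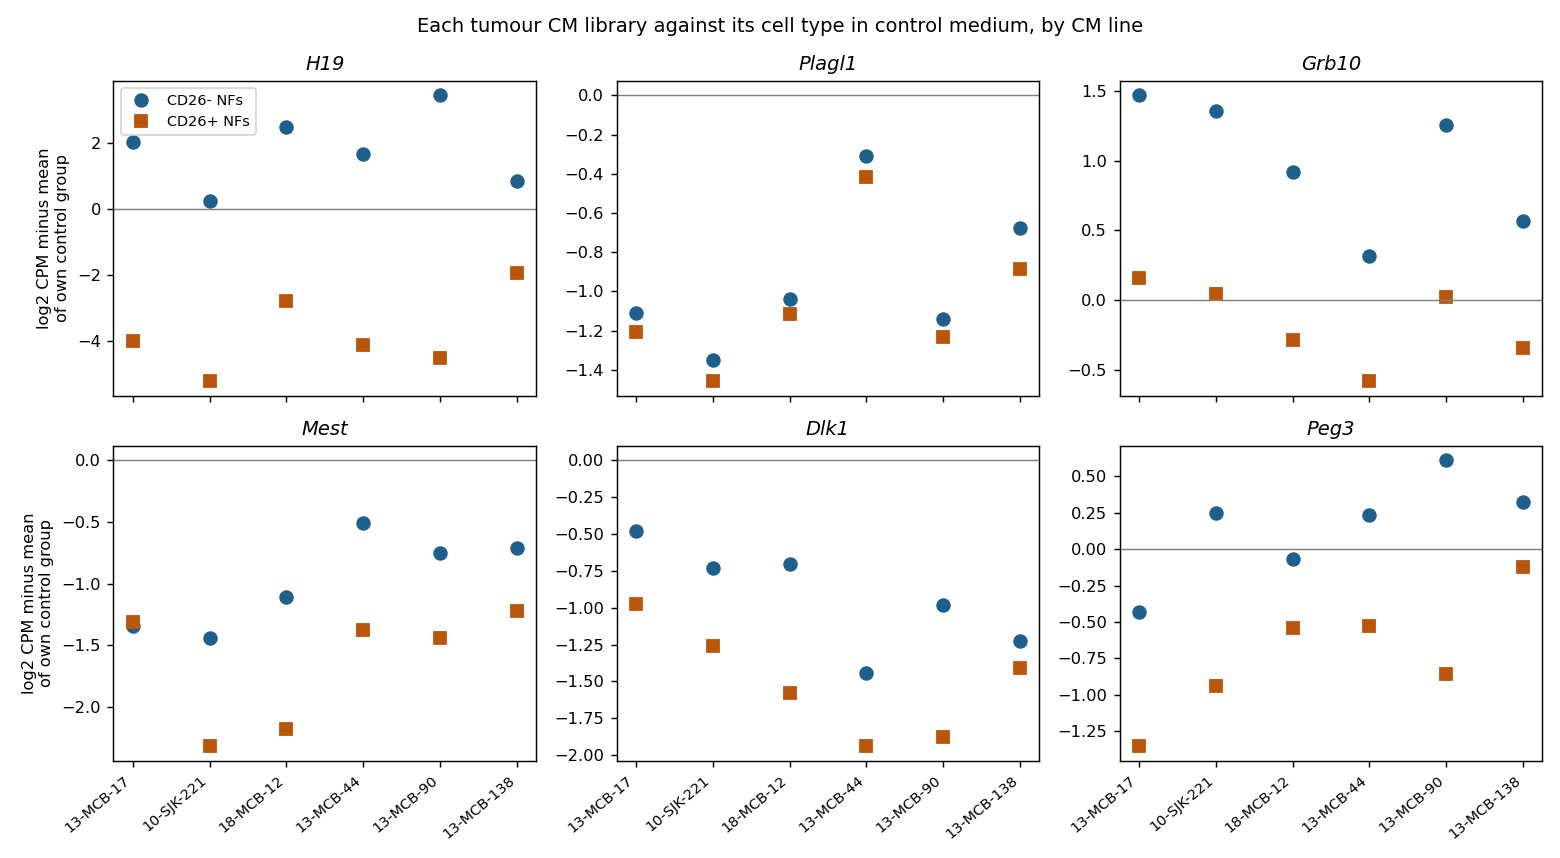
Log2 CPM of each tumor CM library minus the mean of its own cell type in control medium (line at 0), by CM line, for 6 members, with circles for CD26- and squares for CD26+ NFs and a scale set per gene. Plagl1 follows the same order of lines in both cell types, from -1.35 to -0.31 in CD26- and from -1.46 to -0.42 in CD26+ NFs, and H19 lies above 0 in CD26- and below 0 in CD26+ NFs for each line.

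Other imprinted genes were followed from a list of 44, of which 43 were in the table and 33 were tested. In CD26- NFs, where CM raised 7.88% of all genes and lowered 7.28%, it raised 1 of them, the amino acid transporter Slc38a4 (log2 fold change 0.85, FDR 0.0153), and lowered 2, the noncoding Rian (-0.54, FDR 0.0321) and the retrotransposon-derived Peg10 (-0.48, FDR 0.0344). In CD26+ NFs 5 rose and 6 fell, where 15.2% of all genes rose and 13.4% fell. The risers with the smallest p were Cd81 (0.41, FDR 2.82e-05), Igf2r (0.63, FDR 0.000867), which encodes the receptor that clears IGF2, and Sfmbt2 (0.50, FDR 0.0137). Inpp5f (-0.36, FDR 0.00239), Dio3 (-0.72, FDR 0.00426) and Peg10 (-0.58, FDR 0.00632) led the genes that fell. The list medians were -0.11 in CD26- and 0.03 in CD26+ NFs.

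Between cell types in control medium, 10 of the 33 were higher and 11 lower in CD26+ NFs, and in tumor CM 11 were higher and 9 lower. Over all genes 25.0% were higher and 25.4% lower in control medium, and 29.3% each way in tumor CM. Dio3, the thyroid hormone deiodinase gene of the Dlk1 and Meg3 domain, was higher in CD26+ NFs by 3.07 in control medium (66.4 ± 12.0 against 7.95 ± 1.23 CPM, SD, n = 3 each; FDR 2.06e-08) and by 2.23 in tumor CM (FDR 5.04e-09). Rian and Mirg, noncoding RNAs of the same domain, were also higher, by 0.61 (FDR 0.0123) and 1.03 (FDR 0.0135) in control medium. Nnat, the gene of neuronatin, had a log2 fold change of -2.60 in control medium (6.21 ± 1.70 against 37.6 ± 3.33 CPM, SD, n = 3 each; FDR 1.95e-05). The difference of the CM effects passed for 2 genes of the list (all genes, 4.53% more positive and 3.01% more negative), Cd81 (0.29, FDR 0.0249) and Blcap (0.30, FDR 0.0488), both more positive in CD26+ NFs.

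**Figure D4:**
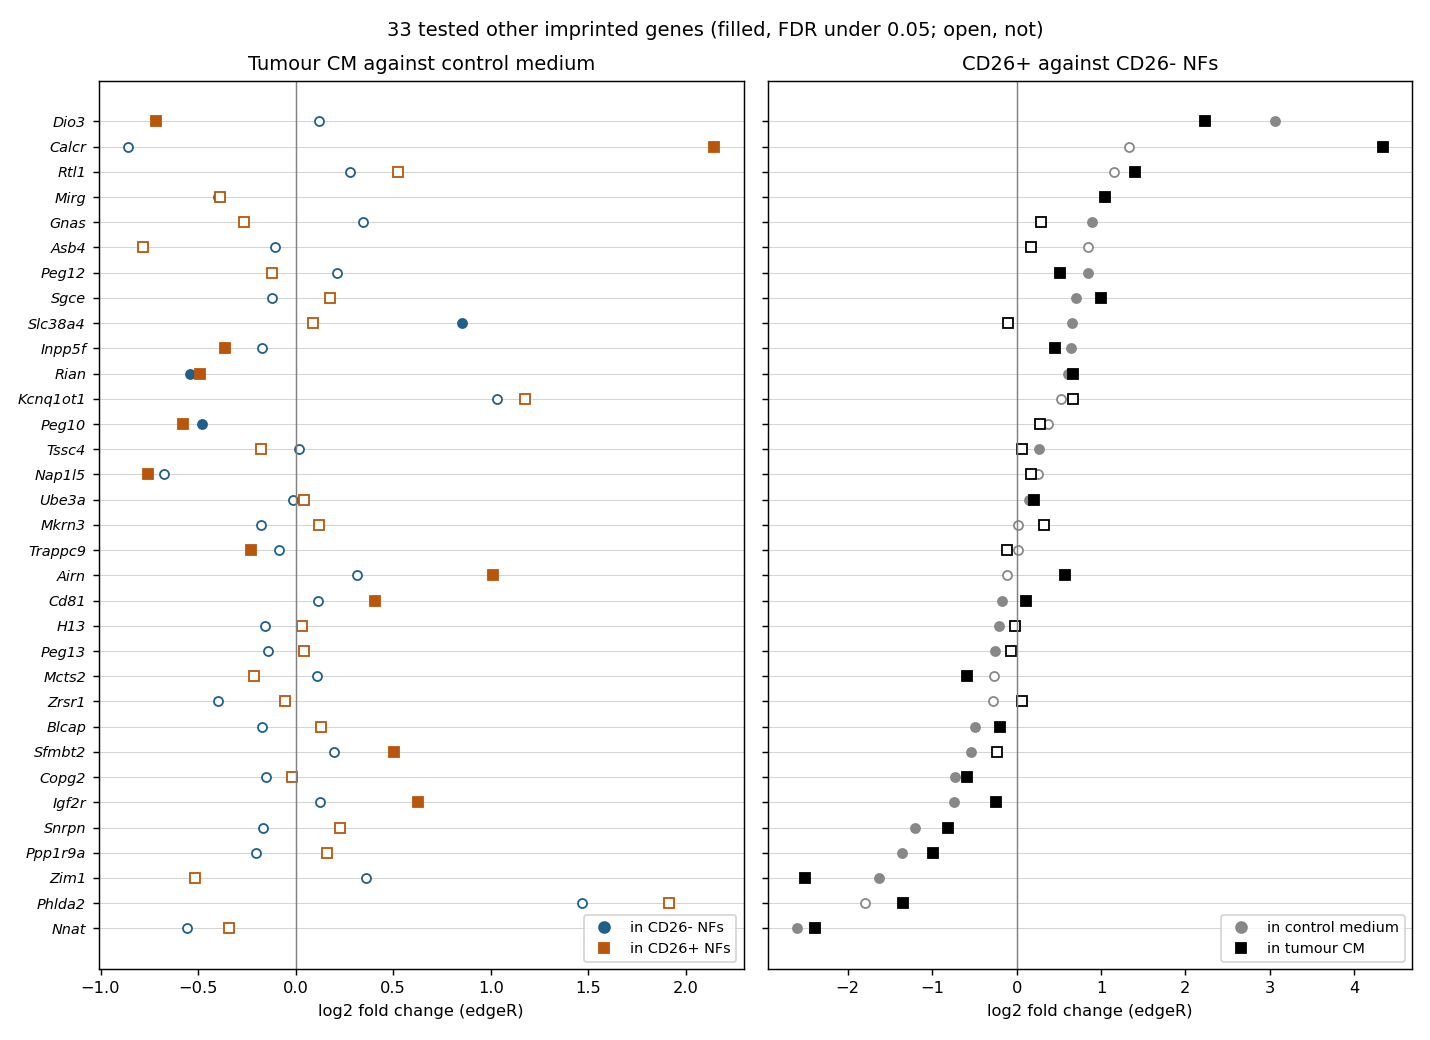
Log2 fold change of the 33 tested other imprinted genes for tumor CM against control medium (left, circles CD26- NFs, squares CD26+ NFs) and for CD26+ against CD26- NFs (right, circles control medium, squares tumor CM), filled where the FDR was under 0.05 and ordered by the control medium comparison. Dio3 lies at 3.07 and Nnat at -2.60 at the ends of that order.

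Genes that act with the members were followed in 3 further lists. Of 6 Igf2 receptors and mRNA-binding proteins, 5 rose with CM in CD26+ NFs, against 15.2% of all genes. These 5 were led by Igf2bp2 (1.21, FDR 0.000251), Igf2r and Igf1r (0.29, FDR 0.00145). In CD26- NFs the edgeR FDR of the list ran from 0.0567 (Igf2bp1, log2 fold change 1.13) to 0.883 (Igf1r, 0.02), with the RNA-binding Igf2bp1, Igf2bp2 and Igf2bp3 under an unadjusted p of 0.05. Of 7 insulin receptor signaling partners of Grb10, the related adaptor Grb14 rose with CM in CD26- (0.81, FDR 0.00664) and CD26+ NFs (1.69, FDR 1.88e-05), Pik3r1 rose in CD26+ NFs (0.49, FDR 5.99e-05) and Irs2 fell there (-0.76, FDR 0.000855). In control medium Grb14 (-2.01, FDR 1.76e-06) and Grb7 (-2.19, FDR 2.81e-05) were lower in CD26+ NFs, where Grb10 was higher.

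Cdkn1a and Cdkn1b encode the relatives of p57. Of 10 Cip/Kip inhibitors, G1 cyclins and their kinases, 4 rose and 2 fell with CM in CD26+ NFs. Over all genes 15.2% rose and 13.4% fell there. Ccnd2 (0.87, FDR 4.73e-06), Cdkn1a (0.89, FDR 7.23e-05) and Cdk6 (1.32, FDR 0.00083) rose, and Cdkn1b (-0.64, FDR 0.000564) and Cdk2 (-0.42, FDR 0.00844) fell. In CD26- NFs Ccnd2 (0.46, FDR 0.00351) and Ccnd3 (0.25, FDR 0.0421) rose, where 7.88% of all genes did. The CM effect on Cdkn1a was larger in CD26+ NFs by 0.79 (FDR 0.0118).

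The genes whose log2 CPM most resembled a member over the 18 libraries were sought among the 10612 genes that averaged 5 CPM or more. They were Xrcc1 (Pearson r 0.879), Hmgn2 (0.874) and Pole3 (0.870) for H19, Mirg (0.971), Sec16b (0.968) and Dcaf8 (0.967) for Meg3, and Cask (0.977), Trabd2b (0.965) and Sav1 (0.957) for Dlk1. Peg3 resembled Cks1b (0.926), Fbxo5 (0.919) and Stil (0.914), Plagl1 resembled Cthrc1 (0.962), Nrep (0.955) and Tgfb3 (0.951), and Mest resembled Pdk4 (0.969), Fhl2 (0.966) and Dnaja1 (0.956). Grb10 resembled Anp32b (0.979), Dnm1 (0.968) and Slc1a5 (0.967), and Ndn resembled Mif (0.954), Nol6 (0.943) and Gys1 (0.941). For Cdkn1c the values were lower, 0.741 for Smim8, 0.716 for Cyp4f16 and 0.703 for Erich1. The 18 libraries share 4 groups and 6 lines, so these coefficients describe the group pattern and carry no test.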

How the data were processed

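The table of raw counts per Ensembl gene was deposited by the authors, with 1 column for each of the 18 libraries and no normalization. The submitters' processing notes name HISAT2 2.1.0, HTSeq and GRCm38, without roles or settings. Libraries were stranded, single-end and of 65 cycles per the labels. All columns were used, and 1 row without a gene, which held 0 counts, was left out. Replicates differed by more than sampling noise (chi-square over its degrees of freedom at least 3.03).

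Genes were kept with filterByExpr by group, TMM-scaled and fitted with edgeR 4.0.16 (R 4.3.3, quasi-likelihood) on 4 group terms with 5 contrasts. Lines were tested over 12 CM libraries with cell type as a term. CPM use the TMM-scaled library size, and log2 CPM a prior count of 2. Exon lengths and gene coordinates came from GENCODE M21 (GRCm38), where 99.35% of shared genes had the coordinates of the table. The functions were tested on simulated data. Correlations of neighboring genes used exact permutation, two-sided, over 6 libraries. SD and SE cover the spread between the cultures at hand.

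Members and lists were chosen with earlier results of these data known. All members were named, from each other list at most the 3 genes of smallest p per direction and contrast past the FDR, and per tested member the 3 genes of highest r. Rian and Mirg in control medium were named after their values were seen, and so were the markers with at most 3 counts. Libraries given the same CM line deviated together (residual r 0.247 to 0.406 over 6 pairs), so a fit with the line as a replicate block was an alternative. The alternatives comprised upper-quartile and RLE scaling, DESeq2 1.42.0, other filters, fewer groups, marker covariates, effect limits of 1 and 2 and leaving out each library or line. Sequences are from RefSeq. Promoters of H19 and Cdkn1c were not analysed here. A part of the donor and tumor genotype is not reported here.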

Additional observations from a re-analysis of the deposited data

Results flagged for a closer look

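The CM effect on H19 differed between CD26+ and CD26- NFs by -5.56 on the log2 scale (edgeR interaction term, FDR 0.00402; -2.49 and FDR 0.557 with muscle markers as a covariate), with all 6 CD26+ CM libraries below the CD26+ controls and 5 of 6 CD26- CM libraries above the CD26- controls. The muscle covariate left 0 of all 14273 genes past the FDR for the difference in CM effect. The CM effect on Grb10 differed by -1.18 (FDR 0.0232), with all 6 CD26- CM libraries above the CD26- controls and the CD26+ groups overlapping. No library stood apart from the 5 others in the 20 gene and group sets of 6 libraries that were checked with Dixon's test at 95%, which chance passes in about 1 of 20 sets.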

How the results depend on the processing

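With 3 control libraries per cell type, single controls decided several calls, and Igf2 was too low for the filter. RLE scaling, the filters on low counts and a fit of the 2 groups alone kept each count of members past the FDR within 1.5 times, with 1 exception: without a filter the line test called 6 members instead of 2 (2475 of all 29724 genes, against 876 of 13344), and DESeq2 called 4 (1373 of 13344). Marker covariates follow the cell type or the medium, and the cause of the values they changed was not tested.

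The count of members past the FDR for CM in CD26- NFs, 5, became 1 with a log2 limit of 1, 0 with a limit of 2 and 0 with the muscle covariate (3 at an unadjusted p under 0.05; DESeq2 without the covariate called 6). Under that covariate the values of Dlk1 (-0.97), Mest (-1.11) and Ndn (0.45) were close in size to those without it (-0.95, -0.96 and 0.48), and those of Plagl1 (-0.70 against -0.91) and Grb10 (0.78 against 1.04) were smaller. For CM in CD26+ NFs, 5 became 1 with the limit of 2. For the cell types in control medium, 6 became 2 with the limit of 2 and 2 with the epithelial covariate, Dlk1 and, not among the 6, Plagl1. For the cell types in tumor CM, 6 became 3 with the limit of 1, 1 with the limit of 2, 2 with the epithelial covariate (again Dlk1 and Plagl1) and 0 with the muscle covariate (3 at an unadjusted p under 0.05; DESeq2 without the covariate called 6), where the values were 2.21 for Dlk1, -1.67 for Mest, 0.25 for Ndn, 0.73 for Meg3, -0.67 for Peg3 and 0.91 for Grb10. For the difference in CM effect, 2 became 5 with the CM line as a replicate block, 4 with DESeq2 (1588 of all 14270 genes, against 1075 of 14273), 1 with the limit of 2, 0 with the muscle covariate (1 at an unadjusted p under 0.05), and 1 to 4 when 1 library was left out (1 without replicate 1, 2 or 11, 4 without replicate 18). The muscle covariate left 0 of all 14273 genes for that difference by edgeR, 259 for the cell types in tumor CM and 2 for CM in CD26- NFs, so these counts say nothing particular to the members. Beside the calls given with the results, the replicate block changed none.

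Direction turned with the muscle covariate for H19 under CM in CD26- NFs (-0.82) and between cell types in tumor CM (3.68), for Plagl1 in tumor CM (-0.085), for Peg3 in control medium (0.035) and for the Meg3 difference in CM effect (-0.36). It turned with the epithelial covariate for Peg3 (0.11) and Mest (0.093) in control medium and for Grb10 (-0.12) and Ndn (-0.069) in tumor CM. The Meg3 difference, 0.0023, was -0.027 with upper-quartile scaling, -0.0064 with a mean of at least 5 CPM and -0.0013 with the replicate block. When 1 library was left out, uncalled values crossed 0: the Meg3 difference ran from -0.21 to 0.13, Peg3 in control medium from -0.11 to 0.041, Cdkn1c under CM in CD26+ NFs from -0.041 to 0.46 and in tumor CM from -0.064 to 0.15, and the Plagl1 difference from -0.29 to 0.040. Without 1 library r of H19 with Igf2 ran from 0.1774 to 0.8145 in CD26- CM and from -0.431 to 0.042 in CD26+ CM. For Meg3 with Dlk1 it ran from -0.891 to -0.554 in CD26- CM (past 0.05 at -0.884, without replicate 8) and from -0.457 to 0.645 in CD26+ CM (0.645 without replicate 13).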
